A study of Sus scrofa with 20 samples.

Results

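The genes described here mark the projection neurons of the striatum, the forebrain nucleus that lies beside the amygdala, and their values were read in amygdala tissue of pigs. The members were 9 genes chosen for this role (PPP1R1B, ADORA2A, RGS9, DRD1, DRD2, PDE10A, ADCY5, PDE1B and RASD2), taken by gene symbol from the annotation of the array. Of these, 7 had a probe set under their symbol, with 17 of the 47845 probe sets on the array between them, and 15 of the 17 were bright enough to be tested. PPP1R1B and DRD1 had no probe set under these symbols and were not analysed here. The question was whether these genes differ between coping groups and whether they rise and fall together from animal to animal, as they would if the amount of striatal tissue in the excised block varied.

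The animals were German Landrace pigs, labelled adult and, per the study's methods, slaughtered some months after birth, 10 labelled high-reactive (HR) and 10 labelled low-reactive (LR) for their coping pattern, with 1 amygdala and 1 Affymetrix Snowball array per pig. The study scored coping by restraining piglets on their backs in early life and also chose the pigs by their haplotype in a region of chromosome 12, so coping class and haplotype cannot be told apart. The labels name no treatment. The amygdala was cut out with all its nuclei after slaughter, using an atlas of the pig brain, and the tissue was not sorted into cell types, so fewer cells of a type and less RNA per cell cannot be told apart.

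Striatal projection neurons are GABA-releasing spiny cells that form the direct and the indirect pathway of the basal ganglia. Cells of the direct pathway carry the dopamine receptor DRD1, which stimulates cAMP synthesis, while cells of the indirect pathway carry the dopamine receptor DRD2, which inhibits it, together with the adenosine receptor ADORA2A, which stimulates it, and the opioid precursor PENK. In both types cAMP drives protein kinase A and the phosphatase inhibitor DARPP-32, the product of PPP1R1B. The central nucleus and the intercalated cell masses of the amygdala hold GABA-releasing neurons of related developmental origin that also express several of these genes, so the genes are not particular to the striatum.

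All values are log2 probe set values after normalization of the arrays against each other. Array medians lay between 5.14 and 5.22. The mean of 69 antigenomic control probe sets, which match no pig sequence, ran from 3.71 to 4.37 and followed the first principal component of the arrays (r = 0.89), which held 49.0% of the variance. LR replicate 3 stood apart from the others, with a median correlation of 0.876 against 0.958 or more for each other array. A gene with several probe sets is represented below by the brightest one. All 7 of these lay above the mean control value on all 20 arrays, but the 95th percentile of the control probe sets, at 7.43 to 8.41, was passed on all 20 arrays only by ADCY5 and PDE1B, on 7 arrays by PDE10A and on 0 arrays by the other members. Values of different probe sets are not comparable with each other as levels of RNA.

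By the brightest probe sets, the receptors of the indirect pathway were the members that varied most between pigs, and they varied in the same pigs. For ADORA2A, the Gs-coupled adenosine receptor, the lowest, median and highest values were 5.98, 6.42 and 6.83 in HR and 5.96, 6.21 and 7.95 in LR. LR replicates 8, 4 and 10 were the highest arrays, at 7.95, 7.53 and 7.24, and the other 17 arrays lay at or below 6.83, and LR replicate 3 at 6.37 was the next LR array. The 3 LR arrays thus lay above all HR arrays, 6 of 10 HR arrays lay in the gap below them, and the groups overlapped below 6.37. For DRD2, the Gi-coupled dopamine receptor, the lowest, median and highest values were 5.82, 6.68 and 7.14 in HR and 6.11, 6.45 and 8.16 in LR. LR replicates 8, 4 and 10 were again highest, at 8.16, 7.41 and 7.40, and LR replicate 9 reached 7.05, inside the HR range. From the lowest to the highest pig ADORA2A spanned 3.98-fold and DRD2 5.04-fold. The dimmer ADORA2A probe set (probe set 2) spanned 3.93-fold, with the same 3 LR pigs above all HR pigs. The dimmer DRD2 probe set (probe set 2) spanned only 1.54-fold. In it LR replicates 8, 4 and 10 were at 6.09, 5.87 and 5.92, and only the first lay above the highest HR pig (5.94). The wide spread of DRD2 thus holds for its brightest probe set only.

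The spread of the brightest probe sets of both receptors was wide for genes of this tissue. The SD over the 20 arrays was 0.54 for ADORA2A and 0.57 for DRD2, against a median of 0.22 over 10307 tested genes. Of the other tested genes, 1.62% had an SD at least as large as that of ADORA2A and 1.05% one at least as large as that of DRD2. Once the first component had been taken out of every gene, 39 other genes were at least as variable as ADORA2A and 31 as variable as DRD2. The other 5 members had SDs from 0.17 for RGS9 to 0.24 for PDE10A, near the median of all genes. Probe set 2 of ADORA2A had an SD of 0.41, and that of DRD2 one of 0.15, below this median. Within the groups ADORA2A had an SD of 0.26 in HR and 0.73 in LR, and DRD2 0.44 in HR and 0.68 in LR. The difference in spread between the groups was not tested.

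**Figure D1:**
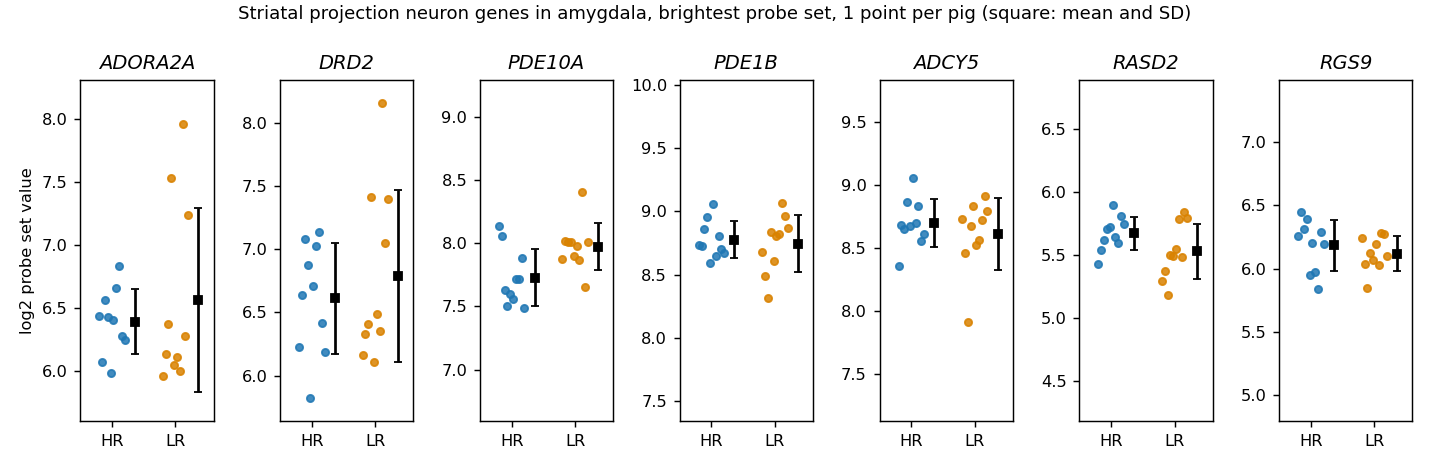
Log2 values of the brightest probe set of each of the 7 measured genes, 1 point per pig, in HR (n = 10, blue) and LR (n = 10, orange), with the mean and SD as a square and bar; the panels span the same number of log2 units but differ in their starting value. ADORA2A and DRD2 each have 3 LR pigs above all HR pigs, while the groups of the other genes overlap within a narrower range.

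Neither receptor passed the test between the coping groups. The HR mean of ADORA2A was 6.39 ± 0.26 (SD, n = 10) and its LR mean 6.56 ± 0.73 (SD, n = 10), so that HR minus LR was -0.17 ± 0.22 (SE, limma adjusted p = 0.580). For DRD2 the HR mean was 6.61 ± 0.44 (SD, n = 10), the LR mean 6.79 ± 0.68 (SD, n = 10) and HR minus LR -0.17 ± 0.23 (SE, limma adjusted p = 0.592). The means and the middle of the groups pointed opposite ways, since 8 of 10 HR pigs lay above the LR median of ADORA2A and 6 of 10 above that of DRD2. Without LR replicate 8 the differences were -0.017 for ADORA2A and -0.022 for DRD2.

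Of the 7 members, 0 were called in the HR and LR comparison by limma, in which 2 of 23860 probe sets (0.00838%) passed an adjusted p under 0.05. At an unadjusted p under 0.05, 1 of the 7 members passed, beside 29.5% of all tested genes, and so did 3 of their 15 tested probe sets, all of PDE10A, beside 26.3% of all probe sets.

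The enzymes that make and break down cAMP gave the one member with a low unadjusted p. PDE10A, a phosphodiesterase enriched in striatal projection neurons, had lowest, median and highest values of 7.48, 7.67 and 8.13 in HR and 7.66, 7.99 and 8.40 in LR. HR replicates 1 and 2 (8.13 and 8.06) lay among the LR pigs, and the other 8 HR pigs lay below the LR median. The difference was -0.25 ± 0.09 (SE) with an unadjusted p of 0.0149 and a limma adjusted p of 0.159, so it did not pass. The other 2 tested probe sets of the gene had differences of -0.17 and -0.33 with adjusted p of 0.173 and 0.159, and all 3 tested probe sets correlated with each other at r = 0.720 to 0.841. PDE10A ran against the first component (r = -0.54), and with that component as a covariate the difference was -0.16 (limma adjusted p = 0.999).

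ADCY5, the main adenylyl cyclase of the striatum, had lowest, median and highest values of 8.36, 8.68 and 9.05 in HR and 7.91, 8.70 and 8.91 in LR. The groups overlapped throughout apart from LR replicate 3 below and HR replicate 6 above, and the difference was 0.09 ± 0.10 (SE, limma adjusted p = 0.551). It was 0.0093 without LR replicate 3 and turned to -0.14 with the first component as a covariate. PDE1B, a calcium- and calmodulin-dependent phosphodiesterase, had lowest, median and highest values of 8.59, 8.73 and 9.06 in HR and 8.31, 8.81 and 9.07 in LR. Its difference of 0.03 ± 0.09 (SE, limma adjusted p = 0.815) was the smallest among the 7 members and turned to -0.13 with the first component as a covariate. A further PDE1B probe set averaged 5.45, and the last one averaged 2.46 and lay below the mean control value on all 20 arrays.

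The regulators of receptor signalling did not pass the test either. RASD2, a striatal small GTP-binding protein also called Rhes, had lowest, median and highest values of 5.43, 5.68 and 5.90 in HR and 5.18, 5.50 and 5.84 in LR. In 9 of 10 HR pigs it lay above the LR median, but HR minus LR was 0.14 ± 0.08 (SE, limma adjusted p = 0.249), and it was 0.042 with the control mean as a covariate and 0.0017 with the first component. RGS9, which speeds the switching-off of G protein signals downstream of dopamine receptors, had lowest, median and highest values of 5.84, 6.23 and 6.45 in HR and 5.85, 6.11 and 6.28 in LR, with a difference of 0.07 ± 0.08 (SE, limma adjusted p = 0.553) that turned to -0.014 with the first component as a covariate. Its groups overlapped in all but the upper end of HR. RGS9 probe set 2 had a difference of 0.10 ± 0.07 (SE, limma adjusted p = 0.314). It did not follow probe set 1 (r = 0.035, permutation p = 0.884), so what is given for RGS9 holds for its brightest probe set only.

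The members were then compared pair by pair across the 20 pigs. ADORA2A and DRD2 rose and fell together (r = 0.895 with permutation p = 1e-05, the smallest the permutations can give, and rho = 0.830 with permutation p = 3e-05). Adjusted over the 21 pairs of members these became 0.00021 for r and 0.00063 for rho. Without LR replicates 4 and 8, the arrays farthest from the median of ADORA2A, r was 0.808. LR replicates 4, 8 and 10 were the highest arrays in ADORA2A, and among the other 17 pigs r was 0.754 (permutation p = 0.00054). Within LR r was 0.944 (permutation p = 0.00026). Within HR it was 0.798 (permutation p = 0.0057), which did not pass when adjusted over the 21 pairs (adjusted p = 0.120). Over all pigs r was 0.903 with the first component removed.

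**Figure D2:**
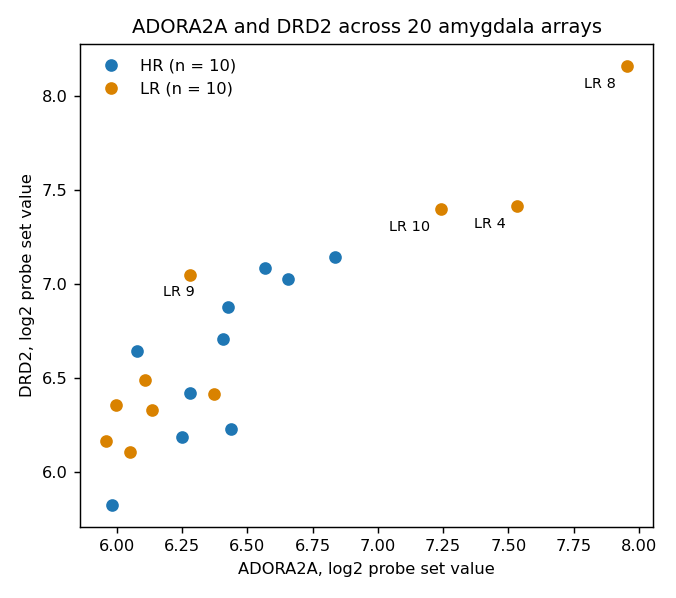
ADORA2A (x axis) against DRD2 (y axis), both as log2 values of the brightest probe set, with 1 point per pig in HR (n = 10, blue) and LR (n = 10, orange). LR replicates 4, 8 and 10 lie at the upper right. The HR pigs lie between 5.98 and 6.83 on the ADORA2A axis, and DRD2 rises with ADORA2A among them too (r = 0.798).

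The second probe sets of both genes gave lower correlations. ADORA2A probe set 2 followed ADORA2A probe set 1 at r = 0.750 and DRD2 probe set 1 at r = 0.636. DRD2 probe set 2 followed DRD2 probe set 1 at r = 0.570 and ADORA2A probe set 2 at r = 0.702. The pairing of the receptors thus appeared with each combination of their probe sets, the lowest being 0.565 for ADORA2A probe set 1 with DRD2 probe set 2.

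The other members did not follow the receptors as a block. Of the 21 pairs, 6 had r of at least 0.5, beside 22.0% of all 53111971 pairs of tested genes, and the median r was 0.30 beside 0.07. By the permutation test 7 pairs passed an adjusted p under 0.05, of which 6 were positive and PDE10A with RASD2 was negative (r = -0.564). DRD2 with PDE1B was the only pair that joined a receptor to another member (r = 0.633, permutation p = 0.00308, adjusted p = 0.0162, and rho = 0.722, permutation p = 0.00048). The count of 7 fell to 2 without LR replicate 3, to 3 without HR replicate 6 and to 4 without LR replicate 2 or 9. The r of DRD2 with PDE1B was 0.539 without LR replicates 4 and 8, and 0.748 with the first component removed. These values are of the brightest PDE1B probe set. PDE1B probe set 2 followed DRD2 at r = 0.072 (permutation p = 0.758) and PDE1B probe set 1 at r = 0.383 (permutation p = 0.0956). PDE1B probe set 3, which lay below the mean control value, followed DRD2 at r = 0.443 (permutation p = 0.0496). The link of DRD2 with PDE1B thus depended on the probe set read. The remaining 4 positive pairs lay among ADCY5, PDE1B, RASD2 and RGS9.

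Those 4 pairs went with the first component of the arrays. The values of ADCY5, RASD2 and PDE1B ran along that component at r = 0.86, 0.79 and 0.74, and RGS9 at 0.48, while ADORA2A (0.05) and DRD2 (0.19) did not. With the component removed, ADCY5 with PDE1B changed from 0.716 to 0.238, ADCY5 with RASD2 from 0.629 to -0.135 and PDE1B with RASD2 from 0.581 to 0.0005, and RGS9 with PDE1B from 0.531 to 0.298. After this step 5 of the 21 pairs had r of at least 0.5, beside 4.45% of all pairs. They were ADORA2A with DRD2, PDE1B and PDE10A, DRD2 with PDE1B, and PDE1B with PDE10A, and the first, the second and DRD2 with PDE1B had an adjusted p under 0.05. RASD2, RGS9 and ADCY5 had no pair at that limit. With the control mean removed instead, 4 of the 21 pairs reached it, beside 9.24% of all pairs, and PDE10A with RASD2 was at -0.379 (adjusted permutation p = 0.266). The component follows the control probe sets, and its part in these pairs beyond that step was not tested.

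**Figure D3:**
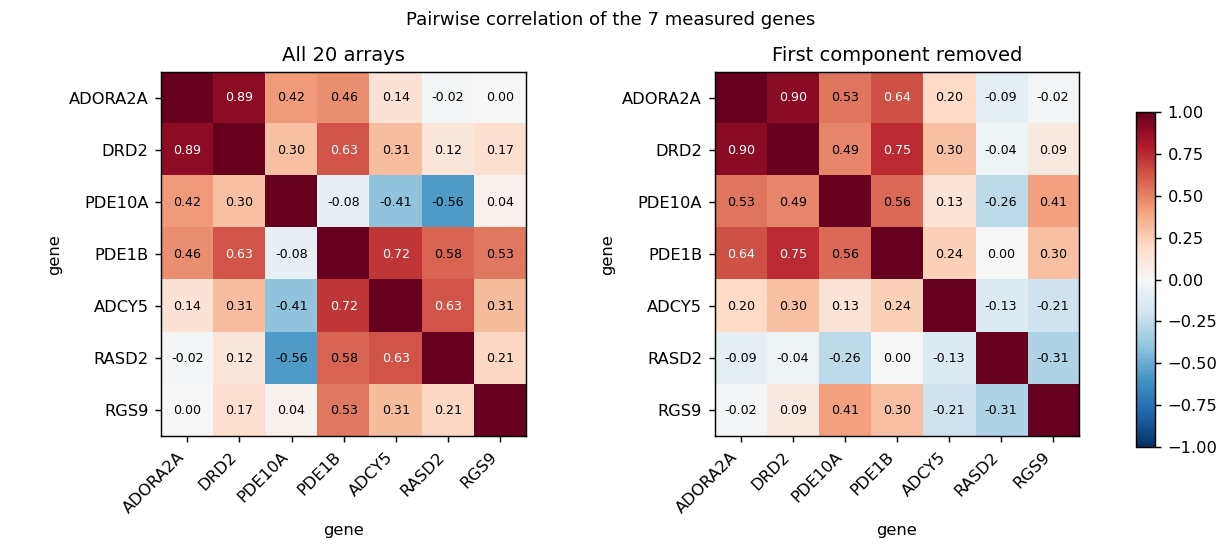
Pearson r of each pair of the 7 measured genes over 20 pigs, as deposited (left) and with the first principal component removed (right), coloured from -1 (blue) to 1 (red). ADORA2A with DRD2 keeps its r (0.89 and 0.90), the pairs of ADCY5, PDE1B and RASD2 fall to between -0.13 and 0.24, and PDE1B and PDE10A gain with ADORA2A.

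Within the groups the values were unlike. Among the HR pigs 4 of 21 pairs had r of at least 0.5 (all tested pairs: 15.1%) and the median was -0.011, while among the LR pigs 10 of 21 did (all tested pairs: 29.3%) and the median was 0.45. The highest LR pig for ADORA2A, LR replicate 8, was also the highest of all 20 for DRD2, PDE10A and PDE1B. In LR, PDE10A followed ADORA2A at r = 0.711 (permutation p = 0.0146), whereas without LR replicates 4 and 8 the value over both groups was -0.045. The difference between the groups was not tested.

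The probe sets of ADCY5 disagreed on this point. The brightest one followed DRD2 at r = 0.311, but ADCY5 probe set 2 did so at r = 0.579 and ADCY5 probe set 3 at r = 0.736, and these dimmer probe sets followed each other at r = 0.846. ADCY5 probe set 3 followed ADORA2A at r = 0.598. So whether this enzyme moved with the receptors depended on which of its probe sets was read.

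To find which genes accompany the receptors, each tested gene was regressed on ADORA2A and on DRD2 with limma, and p-values were adjusted over all tested probe sets. Rising with ADORA2A at an adjusted p under 0.05 were 4 of 10306 genes (0.0388%), and 0 fell. These were DRD2, with a slope of 0.94 ± 0.11 log2 units per log2 unit of ADORA2A (SE, limma adjusted p = 0.000243), SLC5A7 (0.97 ± 0.13, limma adjusted p = 0.00152), PENK (0.55 ± 0.09, limma adjusted p = 0.0409) and DLX6 (0.54 ± 0.09, limma adjusted p = 0.0428). PENK makes the enkephalins released by indirect pathway neurons, DLX6 is a transcription factor of GABA-releasing neurons of the ventral forebrain, and SLC5A7 is the choline transporter of acetylcholine-releasing neurons.

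Rising with DRD2 were 3 of 10306 genes (0.0291%): ADORA2A, PENK with a slope of 0.59 ± 0.07 (SE, limma adjusted p = 0.000245) and DLX6 with 0.56 ± 0.08 (SE, limma adjusted p = 0.00163), and 0 fell. With the first component in the model the count was 8 (0.0776%). SLC5A7 (limma adjusted p = 0.0110), CHAT (0.0306), the acetylcholine-making enzyme, NTS (0.0357), the precursor of neurotensin, CACNA2D2 (0.0417), a calcium channel subunit, and ACTN2 (0.0428), an actin-binding protein of dendritic spines, then passed as well. LSAMP, a cell adhesion protein of limbic neurons, was the 1 gene (0.0097%) that fell (limma adjusted p = 0.0495). With ADORA2A the same step again gave 4 genes, the same as before.

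The calls changed with the pigs used. Without LR replicates 4, 8 and 10, 0 genes rose with ADORA2A and 1 with DRD2, and leaving out any single pig gave 2 to 5 and 3 to 7 genes. The count for ADORA2A was 2 without any one of LR replicates 1, 4, 5, 6, 8 and 10 and HR replicates 3, 5, 7, 8 and 9, and the count for DRD2 was 7 without LR replicate 8. Within HR alone 0 genes rose with either receptor, and within LR alone 0 and 1. As a correlation, PENK followed DRD2 at r = 0.967 among the HR pigs and 0.909 among the LR pigs, and at 0.864 among the 17 pigs without LR replicates 4, 8 and 10.

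The values of the accompanying genes show the same pigs at the top. PENK reached 9.17 in LR replicates 4 and 8 and 9.05 in LR replicate 10, above the highest HR pig at 8.85. DLX6 reached 6.98 in LR replicate 4, 6.88 in LR replicate 8 and 6.69 in LR replicate 10, above the highest HR pig at 6.66. SLC5A7 was highest in LR replicates 8 (6.62), 4 (6.42) and 10 (6.13), but LR replicate 3, which was not high in either receptor, had 6.11. LR replicate 5 and HR replicate 5 were at the low end of ADORA2A, DRD2, PENK and DLX6. The HR minus LR differences of PENK (0.031, limma adjusted p = 0.893), DLX6 (-0.032, limma adjusted p = 0.889) and SLC5A7 (-0.25, limma adjusted p = 0.472) did not pass.

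**Figure D4:**
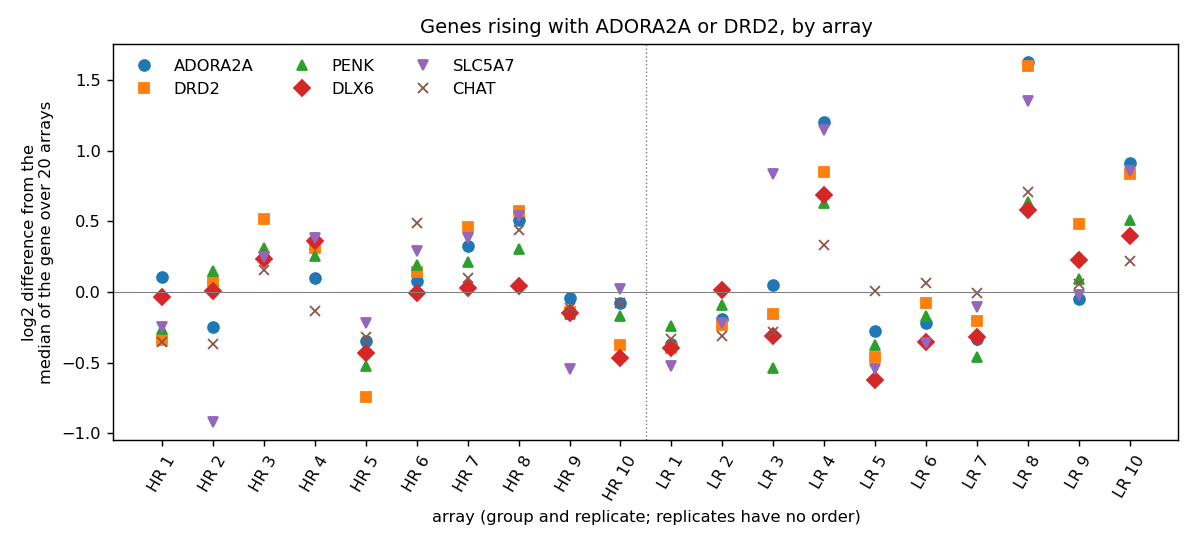
Log2 difference of each gene from its own median over the 20 arrays (y axis) for ADORA2A, DRD2, PENK, DLX6, SLC5A7 and CHAT in each pig (x axis, HR left and LR right of the dotted line). All 6 genes are above their median in LR replicates 4, 8 and 10, and ADORA2A and DRD2 lie furthest above theirs in LR replicate 8 (values of 7.95 and 8.16).

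Other genes known from striatal projection neurons moved with the receptors only in part. Of 34 further genes of this cell type, 25 were tested, and 6 of the 25 had r of at least 0.5 with ADORA2A, beside 0.718% of all tested genes, and 6 of the 25 with DRD2, beside 1.56%. PENK, GNG7, SCN4B, DLX6, ACTN2 and DRD3 made up both counts. GNG7, a G protein subunit coupled to striatal cyclase, followed DRD2 at r = 0.653 (permutation p adjusted over 153 genes = 0.0270), DRD3, a further dopamine receptor, at 0.755 (0.00214), and SCN4B, a sodium channel subunit, at 0.674 (0.0155, but 0.221 by rho), and none of these 3 passed the limma regression. The 153 genes were the listed ones and others picked, after their values were seen, for likeness to the receptors or the members. Permutation p adjusted over them, here and below, can thus be too low. With the first component removed, 10 of the 25 reached r of 0.5 with ADORA2A, beside 1.84% of all tested genes, and 10 of the 25 with DRD2, beside 2.79%. The median r of the 25 genes was 0.18 with ADORA2A and 0.26 with DRD2, beside -0.016 and 0.025 over all tested genes. In the HR and LR comparison 0 of the 25 were called and 6 had an unadjusted p under 0.05, beside 29.5% of all tested genes, with ARPP21 (-0.31, limma adjusted p = 0.157), RARB (-0.39, limma adjusted p = 0.157) and RGS4 (-0.36, limma adjusted p = 0.163) at the lowest p.

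Genes of the central nucleus and the intercalated cells gave a similar picture. Of 12 listed, 9 were tested, and 2 of the 9 had r of at least 0.5 with either receptor, beside 0.718% of all tested genes for ADORA2A and 1.56% for DRD2. They were PENK, which is also on the striatal list, and NTS (r = 0.709 with DRD2, adjusted permutation p = 0.0111). The median r of the 9 genes was 0.19 with each receptor. After removal of the first component, 3 of the 9 reached 0.5 with each receptor, beside 1.84% of all tested genes for ADORA2A and 2.79% for DRD2. The added gene was OPRM1, the mu opioid receptor (0.554 with ADORA2A and 0.528 with DRD2). By limma PENK alone rose, with either receptor, and NTS joined it for DRD2 in the model that held the first component.

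Markers of neurons and other cells outside the projection neurons correlated with the receptors too, and their part in the result was not tested. Over all tested genes 0.718% had r of at least 0.5 with ADORA2A and 1.56% with DRD2. Of the 5 tested genes listed for striatal cholinergic interneurons 2 had r of at least 0.5 with each receptor. They were CHAT (0.784 with DRD2, adjusted permutation p = 0.00210) and SLC5A7 (0.758 with DRD2, adjusted permutation p = 0.00197). Both are genes of acetylcholine-releasing neurons in general and are not particular to the striatum. The mean of the 5 genes lay between 5.21 and 5.69 in HR and between 5.11 and 5.89 in LR, with LR replicates 4, 8 and 10 at 5.89, 5.80 and 5.76. Of the 9 tested oligodendrocyte genes 1 had r of at least 0.5 with ADORA2A (OPALIN) and 5 with DRD2, among them OPALIN (0.648 with DRD2, adjusted permutation p = 0.0198, and 0.449 without LR replicates 4 and 8) and MBP (0.570 with DRD2, adjusted permutation p = 0.0555), and their mean lay between 9.25 and 9.67 in HR and between 9.29 and 9.94 in LR, with LR replicate 8 highest. Of the 5 tested choroid plexus genes 3 had r of at least 0.5 with ADORA2A and 2 with DRD2, and their mean ran from 6.13 to 8.63 in HR and from 6.10 to 8.15 in LR. The highest HR pig for ADORA2A and DRD2, HR replicate 8, was also the highest of all 20 for TTR, the transthyretin made by choroid plexus, at 13.4, and TTR spanned 119-fold. TTR followed ADORA2A at r = 0.554 (permutation p = 0.0119, adjusted p = 0.109 over 153 relations with ADORA2A) and rho = 0.609 (permutation p = 0.00539), with r = 0.438 without LR replicates 4 and 8. With the first component removed, 3 of the 9 oligodendrocyte genes had r of at least 0.5 with ADORA2A and 6 with DRD2. Over all tested genes the shares were then 1.84% and 2.79%. The counts were 2 and 2 of the 5 cholinergic genes, and 3 and 1 of the 5 choroid plexus genes.

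Genes of the glutamate-releasing neurons of the amygdala and cortex had a median r below 0 with the receptors. Of the 17 tested, 0 had r of at least 0.5 and 1 had r of -0.5 or lower with DRD2, ETV1 (-0.578, adjusted permutation p = 0.0490), beside 0.553% of all tested genes, and the median was -0.10. With the first component removed, 2 of the 17 had r of -0.5 or lower with each receptor, beside 3.56% of all tested genes for ADORA2A and 3.37% for DRD2. Their mean lay between 8.78 and 9.12 in HR and between 8.76 and 9.13 in LR, and LR replicate 4 held the lowest value. Of the 8 tested genes of inhibitory interneurons 1 had r of at least 0.5 with DRD2, SLC32A1 (0.585), the vesicular GABA transporter, and 1 had r of -0.5 or lower, CNR1 (-0.522). Astrocyte and microglia genes had 0 of 8 and 0 of 6 members past either limit with either receptor. Of 6 endothelial genes VWF alone passed a limit (-0.546 with ADORA2A, adjusted permutation p = 0.109), of 5 thalamic and pallidal genes PENK alone, and of 2 genes of hippocampal granule neurons 0. With the first component removed, 3 of the 8 interneuron genes had r of at least 0.5 with each receptor. The shares of all tested genes were then 1.84% for ADORA2A and 2.79% for DRD2. At -0.5 or lower were 2 of the 8 with ADORA2A and 1 with DRD2.

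**Figure D5:**
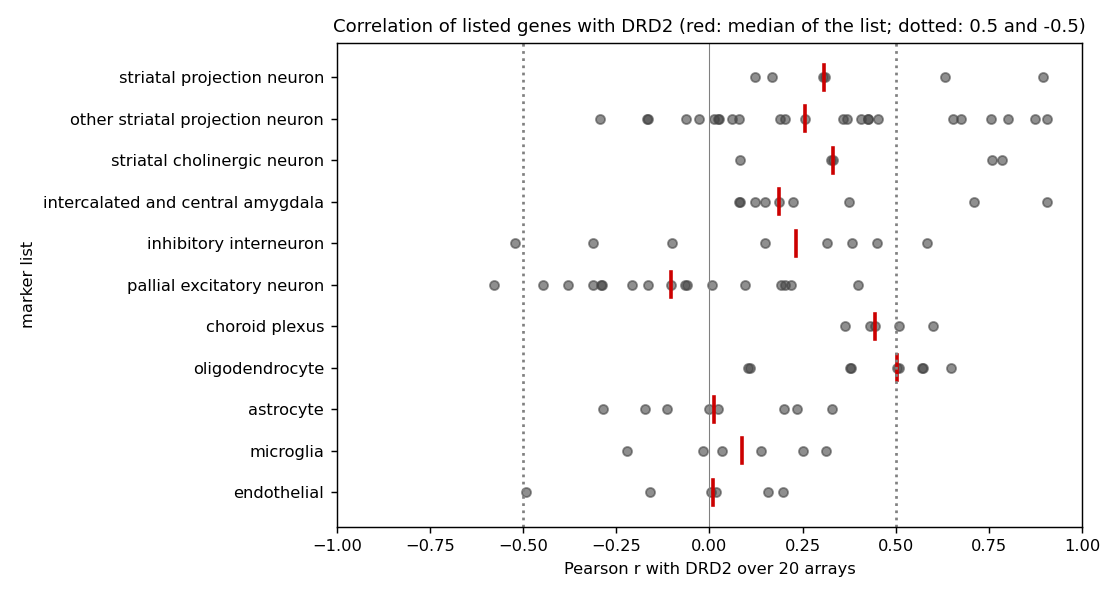
Pearson r with DRD2 over 20 pigs (x axis) for each tested gene of 11 marker lists (rows), with the median of the list in red and r of 0.5 and -0.5 dotted. The medians run from -0.10 for pallial excitatory neurons to 0.50 for oligodendrocytes. The genes of highest r are ADORA2A, PENK and DLX6 in the striatal lists, and PENK also stands in the row of the intercalated and central amygdala.

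Apart from the members and GNG7, genes of the cAMP cascade were read from a list of their own. Of its 30 tested genes for G proteins, protein kinase A subunits, phosphatases and other cyclases and phosphodiesterases, 0 rose or fell with ADORA2A or DRD2 by limma, 0 had r of at least 0.5 in size with either, and the median r was -0.012 with ADORA2A and -0.019 with DRD2. With the first component removed, PPP3CA, a catalytic subunit of calcineurin, was at 0.651 with ADORA2A and 0.612 with DRD2, and ADCY9, a widely expressed cyclase, at -0.617 and -0.693, and these were the only genes of the list past 0.5 in size. In the HR and LR comparison 0 of the 30 were called, and 13 had an unadjusted p under 0.05, beside 29.5% of all tested genes, among them PRKAR2B (-0.49), PRKAR1A (-0.34) and PPP3CA (-0.55), all with a limma adjusted p of 0.157. A separate list of dopamine handling and reception had 4 tested genes (SLC18A2, DDC, MAOA and DRD5), and 0 of them reached r of 0.5 in size with either receptor. The dopamine receptor DRD3, counted above with the striatal genes and not in this list, did reach it with both.

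The genes most like each member were also listed. With the first component removed, the 3 genes outside the members with the highest r over the 20 pigs were MYO1D (0.859), ZNF789 and PNRC1 for ADCY5, ATP5G2 (0.786), KCNH7 and IFT46 for PDE1B, HIATL1 (0.710), OXSM and CHI3L1 for PDE10A, TBKBP1 (0.763), BCL10 and TAC3 for RASD2, and BLNK (0.752), CHST10 and SLC2A5 for RGS9. For ADORA2A the 3 were SLC5A7, PENK and DLX6, and for DRD2 they were PENK, DLX6 and ACTN2. Each list holds only 3 of the tested genes and leaves out the members, so names missing from it were not read as a result. For PDE1B the limma regression with the first component in the model, which kept the members, ranked DRD2 first and DLX6 the third, though no gene passed (limma adjusted p = 0.483 for DRD2 and 0.539 for DLX6). Without removal, limma called 4129 genes (40.1%) rising with ADCY5 and 25% of genes falling, 3035 (29.4%) rising and 2335 (22.7%) falling with PDE1B, and 3645 (35.4%) rising and 2738 (26.6%) falling with RASD2, and 0 for each with the first component in the model. With RGS9 0 genes rose or fell, and with PDE10A 0 rose and 1 (0.0097%) fell, SESN2 (limma adjusted p = 0.00933). For the mean of the 7 standardised members the highest values were those of FIGLA (0.841), PENK (0.840) and GNG7 (0.839), and after removal those of DLX6 (0.816), ACTN2 (0.797) and PENK (0.792).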

How the data were processed

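Amygdala RNA of 10 HR and 10 LR pigs was hybridised to Affymetrix Snowball arrays, 1 per pig. The authors processed the scans in GCOS 1.1.1 (submitters' processing notes), normalized them by the robust multichip average and deposited log2 probe set values. The deposited log2 table still held every probe set, so the study's detection filter was not used. Arrays have no read depth, and their number limits the precision. Labels gave the groups and no batch.

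The platform annotation, which may be old and names no genome build, gave a gene symbol to 26426 probe sets. Probe sets other than array controls were tested if their mean reached 5.18, the median of the table (23860). HR minus LR and the regressions on a member used limma 3.58.1 (R 4.3.3; 2-sided moderated tests), adjusted by Benjamini-Hochberg over all tested probe sets at a threshold of 0.05. Correlations across pigs used 2-sided permutation tests with 100000 resamples (numpy 2.4.6). To remove the first component, residuals of each gene on it were taken. The procedures were tested on simulated data.

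The members, marker lists and tests were chosen with earlier results of these data known. The naming rule took all probe sets of the members, the 10 genes most like their mean (the leading 3 are printed), the 3 most like each member, and the 3 genes of lowest p in each list, which are printed for the lists nearest to the members. List genes given for their r, and CACNA2D2 and LSAMP, were named after their values were seen. Regressions on a member, and leaving out LR replicates 4, 8 and 10 together, were added after the data were seen. Other filters, normalization, array weights, covariates and arrays left out were the alternatives.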

Additional observations from a re-analysis of the deposited data

Results flagged for a closer look

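In 34 groups of 10 values (17 probe sets in HR and in LR), 4 had a lowest or highest pig set far from the rest, where chance gives about 1 in 20 groups, or 1.7. The brightest ADCY5 probe set was lowest in LR replicate 3 at 7.91, with the next LR pig at 8.46, and this array also stood apart over all genes. ADORA2A probe set 2 was lowest in HR replicate 2 at 4.96, with the next HR pig at 5.74. The brightest PDE10A probe set was highest in LR replicate 8 at 8.40, with the next LR pig at 8.02, and PDE10A probe set 2 was highest in the same pig at 8.16, with the next at 7.79. LR replicate 8 was also the highest pig for ADORA2A, DRD2 and PDE1B. The brightest probe sets of ADORA2A and DRD2 were not set apart in this way, since LR replicates 4 and 10 lay between LR replicate 8 and the rest.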

How the results depend on the processing

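No paired analysis was possible because replicate numbers were given in accession order and the labels carry none. No member was called in any of the alternatives to the HR and LR comparison, with limma adjusted p of 0.101 or more, and 194 of 206 values kept their direction. The direction turned for RGS9 with array weights (-0.0077), the control mean as a covariate (-0.015) and the first component as a covariate (-0.014), and for ADCY5 with the control mean (-0.087) and the first component (-0.14). It turned for PDE1B with array weights (-0.058), the control mean (-0.094), the first component (-0.13) and the animal number (-0.054), and its values with each array left out ran from -0.018 without LR replicate 3 to 0.065, with -0.0019 without HR replicate 6. It turned for RASD2 with the animal number (-0.027). The count of probe sets called was 1 with no filter, 1 with a filter at the 75th percentile, 5 with array weights, 1 with the control mean, 0 with the animal number, and 0 to 7 with each array left out. Pairs of members past the permutation test numbered 3 by Spearman's rho, 2 with the control mean removed, 3 with the first component removed, 0 in HR alone and 1 in LR alone, and 2 (without LR replicate 3) to 7 with each array left out. Pairs with r of at least 0.5 numbered 10 in LR alone. The median r of the pairs was -0.011 in HR alone. ADORA2A with DRD2 had r = 0.798 in HR alone, with an adjusted permutation p of 0.120, and 0.829 to 0.920 with each array left out. Genes rising with ADORA2A numbered 0 in HR alone, in LR alone and without LR replicates 4, 8 and 10, and 2 to 5 with each array left out. Genes rising with DRD2 numbered 8 with the first component as a covariate, 0 in HR alone, 1 in LR alone, 1 without LR replicates 4, 8 and 10, and 3 to 7 with each array left out. The cause of these changes was not tested, and fewer arrays were used in those within 1 group.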
